A study of Mus musculus with 42 samples.

Results

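The genes described here are those whose mRNA changed in the same direction in MLL-AF9 leukaemia cells after 5+3 chemotherapy on both diets of the study. A main effect of 5+3 was fitted over 21 mRNA libraries, 11 from treated and 10 from vehicle mice, with diet as a covariate. A gene belonged to the shared response when this effect had a Benjamini-Hochberg adjusted p under 0.05 in edgeR's quasi-likelihood test and the fitted change had the same sign on each diet. Of 13980 protein-coding genes tested, 486 met the rule, 195 of them higher and 291 lower after 5+3. The 13980 were those of 21364 protein-coding genes that passed a filter on low counts. Just inside the threshold were Gpcpd1, Syf2 and Rasd1 (adjusted p = 0.0499 for each), and just outside were Tedc2, Pbxip1 and Chd8 (0.0501 for Chd8).

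Mice of both diets carried the same leukaemia, an acute myeloid leukaemia (AML) driven by the MLL-AF9 fusion. Leukaemic cells from 1 terminally ill mouse had been expanded in culture with SCF, IL-3 and IL-6 and then injected into unconditioned, wild-type male mice aged 8 to 10 weeks. These cells carry GFP, which the labels place under a ubiquitin element, and luciferase under the β-actin promoter. Living GFP+ cells were sorted from bone marrow when the response to chemotherapy was at its maximum. The 5+3 schedule combined cytarabine at 100 mg/kg on 5 days with doxorubicin at 3 mg/kg on the first 3 of them, and vehicle mice received PBS. The 4 groups were mice on the standard amino acid diet (AA) given vehicle (n = 5) or 5+3 (n = 4), and mice on the diet free of branched-chain amino acids (BCAA in the labels) given vehicle (n = 5) or 5+3 (n = 7). Each library is a biological replicate in the labels, so p-values measure the spread between mice that all received cells of 1 leukaemia.

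Cytarabine is a nucleoside analogue that stalls DNA synthesis once it is incorporated, and doxorubicin traps topoisomerase II on cut DNA. Both damage DNA in dividing cells, and the damage stabilises p53, a transcription factor that turns on genes of cell cycle arrest and apoptosis. MLL-AF9 blasts sit along the granulocyte and monocyte lineage, in which immature cells express primary granule genes and maturing monocytes express lysozyme, cathepsins, Irf8 and antigen presentation genes. Because the measurements are on bulk sorted cells, fewer cells of a type and less RNA per cell cannot be told apart.

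The mRNA libraries held between 30996200 and 70437713 counts, of which 89.3% to 94.7% fell on protein-coding genes. Libraries BCAA vehicle 1 and BCAA vehicle 5 lay farthest from the rest on the first principal component (-62.3 and -212). BCAA vehicle 2 (-25.7) and BCAA 5+3 7 (-15.0) came next at that end, the latter not far beyond AA vehicle 1 (-6.26). These 4 are called below the libraries that stood apart, a choice made after seeing the data. Without the first pair 252 genes met the rule, and without all 4 libraries 98 did. The number of coding genes detected had a median of 14859 on AA vehicle, 18024.5 on AA 5+3, 13842 on BCAA vehicle and 15117 on BCAA 5+3, and with it as a covariate 253 of the 486 genes still met the rule. A letter suffix in the sample descriptions marks the AA vehicle mice only, so on the AA diet whatever it stands for cannot be told apart from the treatment, whereas neither BCAA group carries it. Among the defining markers of the cells, Ptprc, Kit, Itgam, Mpo and the other leukaemia identity genes were all detected. Their summed level was 2983 to 13284 CPM (counts scaled to a common library total) on AA vehicle, with a median of 3609. It was 4722 to 10518 on AA 5+3 (median 7132), 3241 to 5471 on BCAA vehicle (median 3882) and 3983 to 14950 on BCAA 5+3 (median 7067). The median change over the 11 genes was -0.04 on the log2 scale.

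The shared response covered 3.48% of the genes tested, 1.39% higher and 2.08% lower, and the called main effect alone 3.49%, with 2.1% lower. Median change was 0.84 on the log2 scale for the higher genes (1.80-fold) and -0.95 for the lower genes (1.93-fold), against a median of 0.04 over all genes tested. A change of at least 2-fold was reached by 195 of the 486 genes, and by 89 of them on each diet. Only 2 genes with a called main effect had opposite signs on the diets, Ltf and G0s2, but agreement of sign among called genes follows from the test and carries no weight of its own.

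The within-diet values below use the libraries that chose the genes and are a description of them. Within the BCAA diet alone 1761 genes (12.6%) passed the adjusted threshold, and within the AA diet 13 (0.093%). Of the 486 shared genes, 406 were called within BCAA, 10 within AA and 6 in both, and 383 had the larger change on BCAA. Those 6 were Phlda3, Pim1, Ms4a3 and Cdkn1a, all higher, and Irf8 and Ctsh, both lower. The median standard error of a log2 change was 0.36 on AA and 0.31 on BCAA. At an unadjusted p under 0.05, 213 of the shared genes passed on AA, where 6.96% of all genes tested did, and 478 on BCAA, where 29.9% did. On both diets 205 of the shared genes passed, whereas over all genes tested 254 (1.82%) did so with the same sign and 80 (0.572%) with opposite signs. Across all 13980 genes the AA and BCAA changes, which share no library, had a Pearson correlation of 0.03 and a Spearman correlation of 0.15, and across the 8549 genes with a mean of at least 10 CPM the Pearson value was 0.30. Genes are not independent replicates, so these are descriptions.

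**Figure D1:**
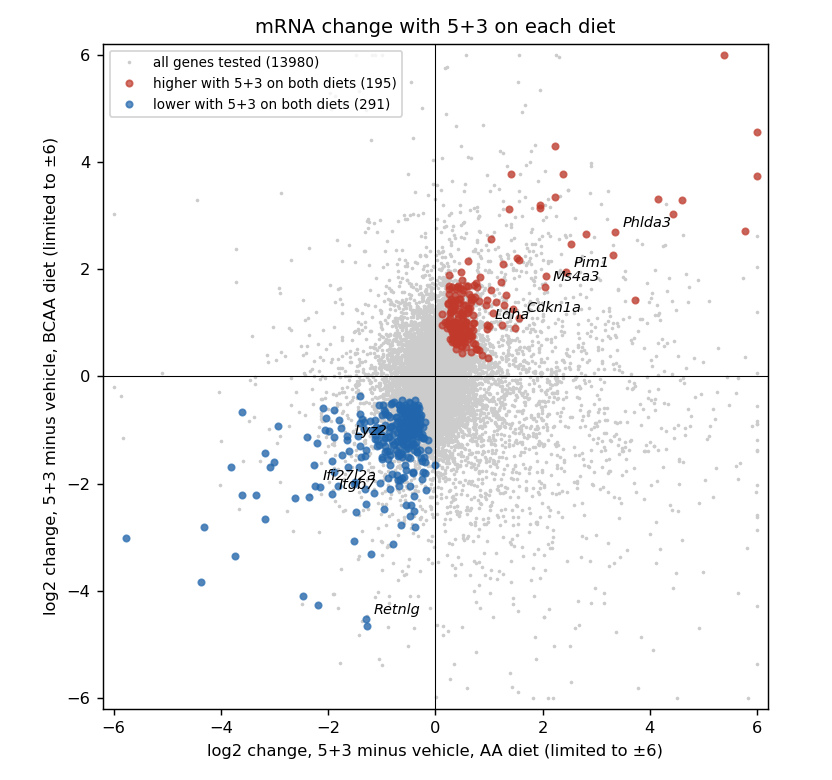
Change in mRNA after 5+3 on the AA diet (horizontal, log2) against the change on the BCAA diet (vertical, log2), 1 point per gene, values beyond 6 drawn at the edge. Grey points are the 13980 genes tested, red the 195 and blue the 291 genes of the shared response; Phlda3, Pim1 and Ms4a3 lie near equal change on both axes, and Retnlg lies far lower on BCAA than on AA.

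How many genes were called depended on single libraries. Leaving out 1 library at a time gave between 193 genes (without BCAA vehicle 2) and 1661 genes (without AA vehicle 4), and 15 of the 21 such fits moved the count by more than 1.5 times. The share of higher genes ran from 26.6% to 50.8%, against 40.1% with all libraries. Each of the 486 genes kept its direction wherever it was tested, which for genes already called follows largely from the choice. In all 21 leave-one-out fits 153 genes met the rule, 44 higher and 109 lower, and 66 of these also met it without the 4 libraries that stood apart. Of the genes described below and kept in all 21 fits, Slc7a5, Insig1, Aurkb, Rrm2, Dgat2, Carhsp1, Samhd1, Hk2, Cybb, Isg15, Retnlg, Grn, Adgre1 and Ebf1 did not meet it without those 4. The genes named below with their change were kept in all 21 fits unless a number of fits is given.

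**Figure D2:**
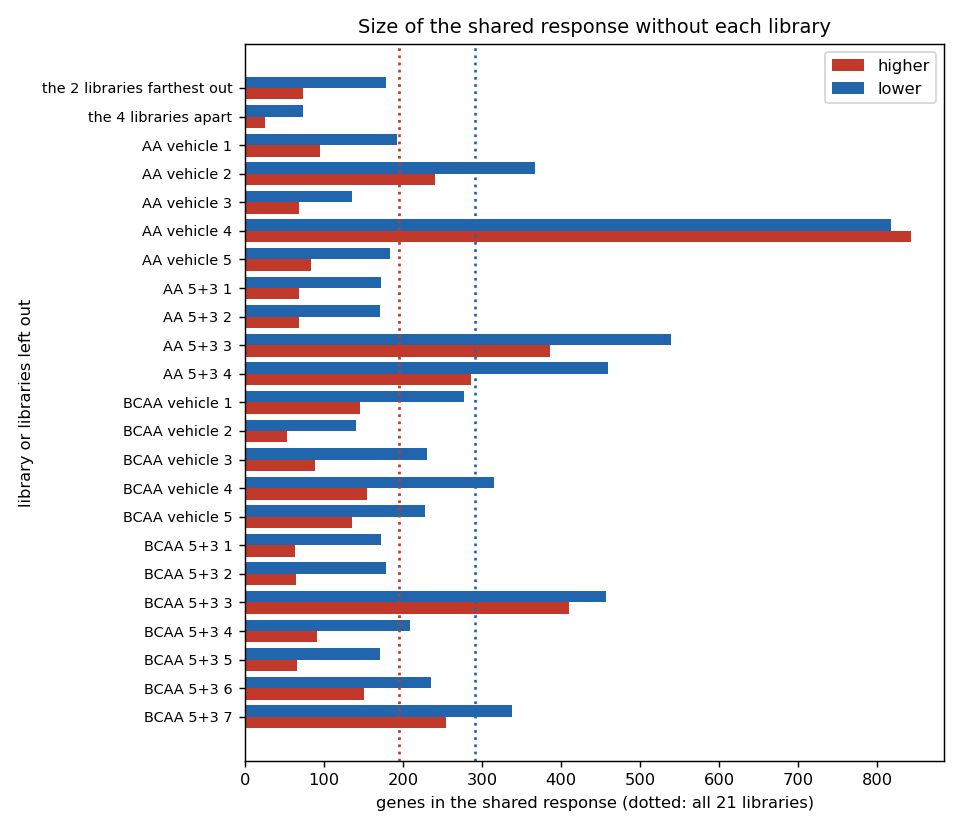
Number of genes in the shared response (horizontal, red higher and blue lower after 5+3) when the library or libraries on the vertical axis are left out. Dotted lines mark 195 and 291, the counts with all 21 libraries; the bars are longest without AA vehicle 4 (843 higher and 818 lower) and the total is smallest without the 4 libraries apart (25 higher and 73 lower).

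Targets of p53 were among the clearest higher genes. Of 28 listed p53 targets tested, 6 rose and none fell, with a list median of 0.41 on the log2 scale. Over all genes tested 1.39% rose and 2.08% fell, and each list count below is to be read beside these shares. Phlda3 (ENSMUSG00000041801, chr1:135766085-135769134), a p53-induced inhibitor of Akt, showed the largest change of the 12 higher genes chosen at a mean of at least 10 CPM. Its mRNA level on AA vehicle was 0.206, 0.308, 0.801, 1.78 and 2.05 CPM, and on AA 5+3 it was 5.20, 8.92, 11.1 and 16.2 CPM. On BCAA vehicle the level was 1.91, 2.33, 4.96, 6.47 and 6.87 CPM, and the 7 BCAA 5+3 libraries ran from 12.3 through a median of 27.8 to 50.0 CPM. Every treated mouse was above every vehicle mouse of its diet, and BCAA vehicle mice lay above most AA vehicle mice. The main effect was 2.97 ± 0.37 (SE) on the log2 scale, a 7.83-fold rise with an adjusted p of 6.59e-05.

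Cdkn1a (ENSMUSG00000023067, chr17:29090979-29100722) encodes p21, the cyclin-dependent kinase inhibitor through which p53 stops the cell cycle. It measured 18.4, 26.7, 31.4, 44.7 and 71.6 CPM on AA vehicle and 83.6, 94.1, 125 and 154 CPM on AA 5+3. On BCAA it measured 45.9, 49.1, 53.4, 64.7 and 70.1 CPM with vehicle and 89.8 to 166 CPM with 5+3 (median 124). The groups did not overlap on either diet, which among all genes tested held for 24 (0.172%), 12 higher (0.0858%) and 12 lower (0.0858%). The main effect was 1.30 ± 0.20 on the log2 scale (2.46-fold, adjusted p = 0.000686). Ccng1, cyclin G1, rose 2.19-fold (log2 1.13 ± 0.20, adjusted p = 0.00345), from 44.8, 56.1, 67.0, 67.5 and 87.1 CPM to 98.2, 110, 151 and 182 CPM on AA, and from 24.8, 64.0, 69.5, 69.8 and 74.3 CPM to a median of 147 CPM on BCAA (67.5 to 198). On AA its groups were separate, and on BCAA 1 treated mouse lay within the vehicle range.

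The other 3 p53 targets were less stable. Zmat3, an RNA-binding growth regulator, rose by 1.34 ± 0.35 on the log2 scale and met the rule in 10 of 21 leave-one-out fits. Pmaip1, the BH3-only protein Noxa, rose by 1.01 ± 0.28 and met it in 7, and Aen, an apoptosis-enhancing nuclease, rose by 0.67 ± 0.17 and met it in 13. None of the 40 genes of DNA damage signalling and repair met the rule (median 0.04), where 3.48% of all genes tested did. In edgeR's test of ribosome footprints, 8 of those 40 rose and 1 fell, where 9.59% of all genes tested rose and 9.8% fell.

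**Figure D3:**
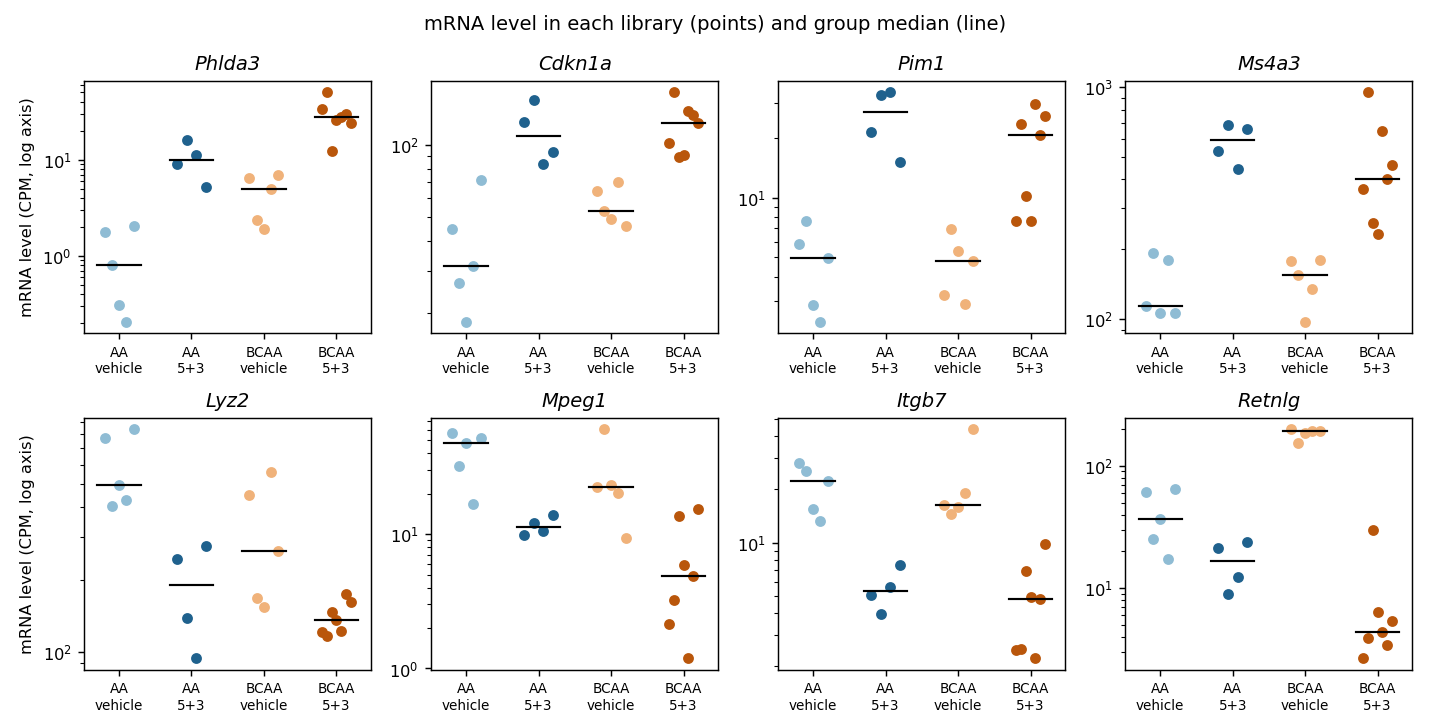
mRNA level (CPM, log axis) of 8 genes in each library, by diet and treatment; each point is 1 mouse and the line is the group median. For Phlda3, Cdkn1a, Pim1 and Ms4a3 every 5+3 mouse is above every vehicle mouse of its diet, for Itgb7 every one is below, and for Retnlg the fall is deeper on BCAA than on AA.

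Pim1 and Ms4a3 rose on each diet by the adjusted test. Pim1 (ENSMUSG00000024014) is a serine/threonine kinase induced by STAT5 downstream of cytokine receptors. It stood at 2.37, 2.89, 4.96, 5.85 and 7.59 CPM on AA vehicle and at 15.2, 21.4, 32.7 and 33.8 CPM on AA 5+3. BCAA vehicle mice had 2.90, 3.22, 4.79, 5.41 and 6.91 CPM, and BCAA 5+3 mice 7.58 to 29.7 CPM (median 20.7). The groups were separate on both diets, narrowly so on BCAA, and the main effect was 2.16 ± 0.29 on the log2 scale (4.47-fold, adjusted p = 0.000164). Among 21 listed STAT5 feedback genes and Pim kinases, 3 rose and none fell in mRNA. In footprints 2 of the 14 tested rose and 4 fell (median -0.03), where 9.59% of all genes tested rose and 9.8% fell. Cyclin D2, Ccnd2, rose by 0.65 ± 0.18 on the log2 scale and met the rule in 6 leave-one-out fits. The cytokine signalling inhibitor Socs2 rose by 2.35 ± 0.67 from a low level (mean 0.896 CPM) and met it in 5.

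Ms4a3 (ENSMUSG00000024681, chr19:11629499-11640851) is a membrane protein of granulocyte and monocyte progenitors. Its level was 106, 107, 114, 180 and 193 CPM on AA vehicle against 445, 529, 660 and 685 CPM on AA 5+3. On BCAA it was 97.6, 135, 155, 179 and 179 CPM with vehicle and 233 to 949 CPM with 5+3 (median 402). No treated mouse overlapped the vehicle mice of its diet, and the main effect was 1.83 ± 0.22 on the log2 scale (3.57-fold, adjusted p = 6.59e-05). It was the only 1 of 14 primary granule genes to meet the rule, although the list's median was 0.46 and 10 of the 14 had a positive change on both diets. Marcksl1, a membrane-bound actin regulator, also separated on both diets. It read 15.3, 15.7, 17.5, 19.0 and 20.3 CPM on AA vehicle against 33.6, 39.4, 41.5 and 55.5 CPM on AA 5+3, and 15.7, 22.2, 38.4, 39.2 and 41.7 CPM on BCAA vehicle against 43.8 to 98.7 CPM on BCAA 5+3 (log2 1.31 ± 0.18, adjusted p = 0.000163).

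Of 22 glycolysis genes 5 rose and 1 fell, with a list median of 0.52, and without the 4 libraries that stood apart 2 of the 6, Ldha and Slc16a3, still met the rule. Ldha (ENSMUSG00000063229, chr7:46842274-46855627), which turns pyruvate into lactate, measured 497, 544, 585, 707 and 925 CPM on AA vehicle and 1159, 1231, 1336 and 1378 CPM on AA 5+3. On BCAA vehicle it was 469, 495, 497, 780 and 909 CPM, and on BCAA 5+3 699 to 1481 CPM (median 1360.03). AA groups were separate and BCAA groups overlapped at 1 or more mice, with a main effect of 0.97 ± 0.18 on the log2 scale (1.95-fold, adjusted p = 0.00404). Slc16a3, the monocarboxylate transporter that exports lactate, rose 2.34-fold (log2 1.23 ± 0.21, adjusted p = 0.00302), from a range of 36.1 to 65.9 CPM to 73.7 to 122 CPM on AA and from 21.1 to 44.4 CPM to 39.8 to 144 CPM on BCAA, with the groups separate on AA. Enolase 1 (Eno1) rose by 1.29 ± 0.30 and was kept in 20 fits, while Tpi1 (0.60 ± 0.16) and Gapdh (0.95 ± 0.26) were kept in 8 and 6. Eno1 and Gapdh have near-identical copies in the genome, so their counts are uncertain. Hexokinase 2 (Hk2), the enzyme of the first step, fell by 1.10 ± 0.25 on the log2 scale (adjusted p = 0.0173).

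Of 30 ATF4 targets, the genes switched on when amino acids run short, 5 rose and none fell (median 0.44). All 5 changed more on BCAA than on AA, although for none did the test of that difference pass. Slc7a5, the exchanger that imports leucine and other large neutral amino acids, was at 30.3, 38.4, 45.1, 46.3 and 78.7 CPM on AA vehicle and 56.1, 64.3, 76.1 and 95.6 CPM on AA 5+3. On BCAA vehicle it was at 35.8, 45.0, 48.4, 50.8 and 65.7 CPM, and on BCAA 5+3 at 55.2 to 265 CPM with a median of 161. Groups overlapped on both diets, with a change of 0.61 on AA, 1.69 on BCAA and a main effect of 1.23 ± 0.27 (adjusted p = 0.0165; interaction adjusted p = 0.338). Asparagine synthetase, Asns, changed by 0.26 on AA and 1.53 on BCAA (main 0.98 ± 0.26, adjusted p = 0.0367) and met the rule in 10 fits. Psat1 and Shmt2 of serine and glycine synthesis (0.89 ± 0.22 and 0.87 ± 0.22) and Aldh18a1 of proline synthesis (1.13 ± 0.32) met it in 17, 9 and 7.

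Gclm, the modifier subunit of the enzyme that starts glutathione synthesis, had levels of 26.4, 39.9, 47.5, 66.4 and 78.9 CPM on AA vehicle and 76.6, 92.0, 133 and 149 CPM on AA 5+3. On BCAA it had 35.8, 36.6, 43.5, 51.3 and 55.9 CPM with vehicle and 67.3 to 203 CPM with 5+3 (median 93.3). The BCAA groups were separate and the AA groups overlapped by 1 mouse, with a main effect of 1.27 ± 0.21 (2.41-fold, adjusted p = 0.00203). Of the 30 antioxidant and ferroptosis genes, Txnrd1 was the other member (0.57 ± 0.16, kept in 5 fits). Dgat2, which makes triglyceride, rose by 1.90 ± 0.44 on the log2 scale, 1.03 on AA and 2.57 on BCAA, with an interaction adjusted p of 0.396. Carhsp1, an RNA-binding phosphoprotein, rose by 1.37 ± 0.27 and Bcl3, a nuclear IκB family member, by 1.43 ± 0.37, the latter in 11 fits.

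Some cell cycle genes rose in mRNA, where 1.39% of all genes tested rose and 2.08% fell. Of 40 G2 and mitosis genes 5 rose (Aurkb, Ccna2 in 12 fits, Mad2l1 in 15, Cdca3 in 14 and Ccnb1 in 6) and none fell, and of 40 S phase genes 2 rose (Mcm10 in 11 fits and Fen1 in 8) and none fell, with medians of 0.35 and 0.32. The mitotic kinase Aurkb was the member kept in all leave-one-out fits (log2 0.93 ± 0.21, adjusted p = 0.0190), and without the 4 libraries that stood apart none of the 7 met the rule. In footprints 23 of the 40 G2 and mitosis genes and 23 of the 40 S phase genes rose, and none fell. Over all genes tested in footprints 9.59% rose and 9.8% fell. The median standard error was 0.11 in footprints against 0.24 in mRNA, so the counts of the 2 readouts are not compared. Among genes that handle the drugs, Rrm2, the ribonucleotide reductase subunit that supplies deoxynucleotides, rose 2.22-fold (1.15 ± 0.24, adjusted p = 0.00973). Its levels were 120, 138, 163, 210 and 331 CPM on AA vehicle, 250, 287, 409 and 412 CPM on AA 5+3, 108 to 194 CPM on BCAA vehicle and 205 to 759 CPM on BCAA 5+3, with overlap on AA and none on BCAA. Samhd1, which hydrolyses the active triphosphate of cytarabine, fell by 0.57 ± 0.13 on the log2 scale (1.49-fold, adjusted p = 0.0195). It was at 90.1, 114, 114, 120 and 132 CPM on AA vehicle against 65.3, 83.0, 84.5 and 99.9 CPM on AA 5+3, and at 54.8 to 88.1 CPM on BCAA vehicle against 37.6 to 61.9 CPM on BCAA 5+3, with overlap on both diets. Cbr3, a carbonyl reductase, rose by 2.66 ± 0.66 at a mean of 0.581 CPM and was kept in 20 fits.

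**Figure D4:**
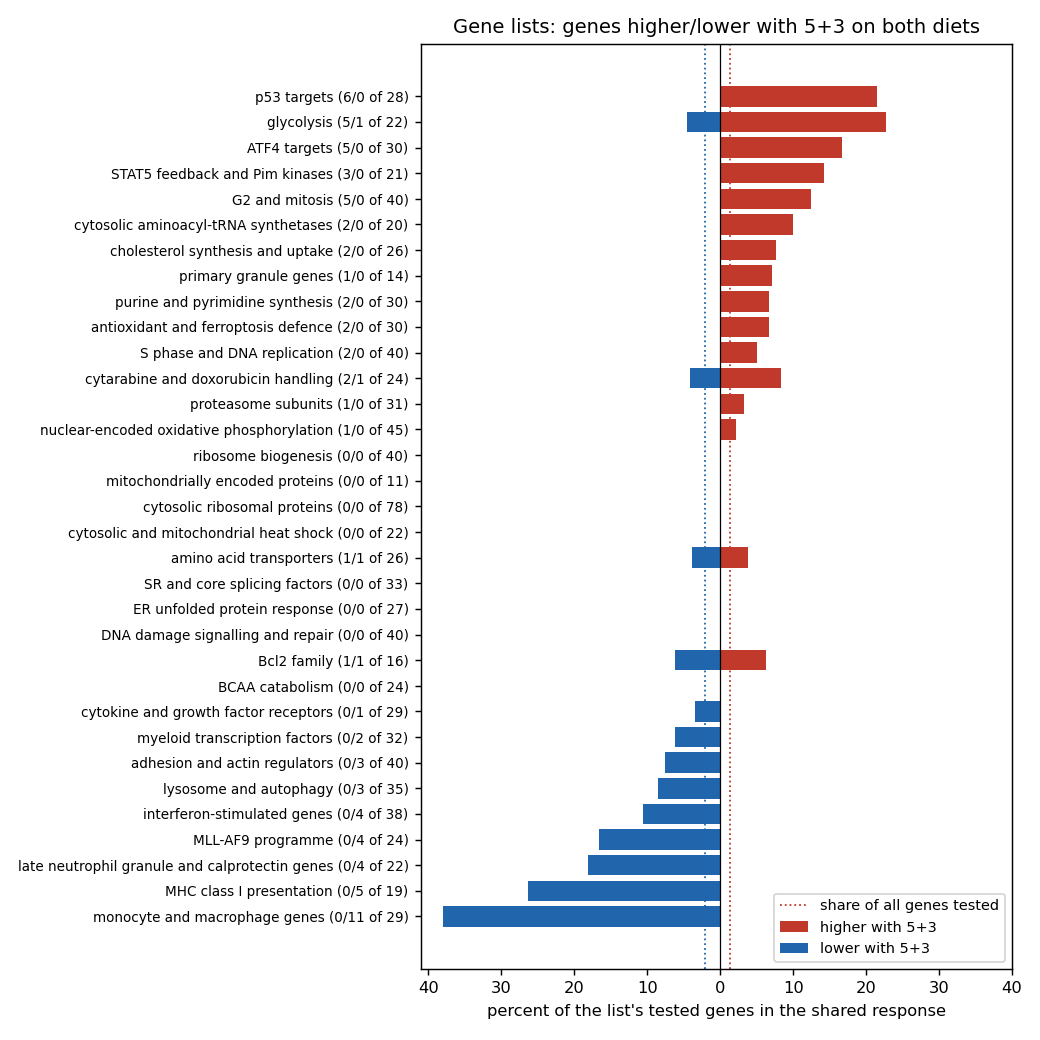
Share of each gene list's tested genes that met the rule, red to the right for genes higher and blue to the left for genes lower after 5+3, with the numbers higher and lower of those tested in brackets. Dotted lines mark the share over all genes tested (1.39% higher and 2.08% lower); the bar of monocyte and macrophage genes reaches farthest to the left, with 11 of 29, and p53 targets (6 of 28) and glycolysis (5 of 22) reach farthest to the right.

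Of the 33 lists, monocyte and macrophage genes had the largest share of lower genes. Of 29 tested, 11 fell and none rose (list median -0.61), where 2.08% of all genes tested fell. Lysozyme 2, Lyz2 (ENSMUSG00000069516, chr10:117277541-117282272), the bactericidal enzyme of monocytes, had 405, 427, 492, 774 and 842 CPM on AA vehicle against 94.6, 138, 243 and 277 CPM on AA 5+3. BCAA vehicle mice had 155, 168, 262, 449 and 561 CPM, and BCAA 5+3 mice 116 to 174 CPM with a median of 137. The groups were separate on AA and overlapped on BCAA, and the main effect was -1.38 ± 0.24 on the log2 scale (2.61-fold lower, adjusted p = 0.00244). Its near copy Lyz1 fell by 2.71 ± 0.54, and reads of the pair may be shared.

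Irf8 (ENSMUSG00000041515), the transcription factor that directs progenitors to the monocyte lineage, had 51.8, 55.5, 70.8, 85.8 and 118 CPM on AA vehicle and 13.5, 13.9, 16.8 and 29.5 CPM on AA 5+3. On BCAA it had 41.4, 52.2, 55.2, 68.4 and 74.2 CPM with vehicle and 9.99 to 44.0 CPM with 5+3 (median 33.5). AA groups were separate, and on BCAA the highest treated mouse was just above the lowest vehicle mouse (main -1.45 ± 0.27, 2.74-fold lower, adjusted p = 0.00431). Mpeg1, the pore-forming perforin-2 of macrophages, had 16.9, 32.4, 47.7, 51.9 and 56.9 CPM on AA vehicle and 9.88, 10.6, 12.1 and 13.9 CPM on AA 5+3, with 9.31, 20.4, 22.4, 23.5 and 60.6 CPM on BCAA vehicle and 1.19 to 15.5 CPM on BCAA 5+3. It fell 3.85-fold (-1.94 ± 0.37, adjusted p = 0.00535), with 1 BCAA vehicle mouse inside the treated range.

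Further members were the cysteine protease Ctss (-1.67 ± 0.35), the adaptor Lat2 (-1.79 ± 0.35), the calcium-binding protein Aif1 (-1.72 ± 0.36) and the NADPH oxidase subunit Cybb (-1.19 ± 0.29), each kept in all 21 fits. Zeb2, Ly86 and Klf4 were kept in 10, 8 and 8. Lat2 changed by -2.94 on AA and -0.93 on BCAA, and Ly86 by -3.61 and -0.67, without a passing interaction (adjusted p = 0.146 and 0.124). Without the 4 libraries that stood apart, 7 of the 11 still met the rule. Markers of resident macrophages did not move with these genes as a list: 1 of 12 fell (Adgre1), none rose, and their summed level was 186 to 325 CPM on AA vehicle, 175 to 247 on AA 5+3, 148 to 199 on BCAA vehicle and 141 to 193 on BCAA 5+3. Of 11 dendritic cell markers none met the rule. In the lysosome list, the cathepsin gene Ctsh fell 2.48-fold (-1.31 ± 0.20, adjusted p = 0.000783) and Grn, progranulin, by 0.52 ± 0.13, while Tfeb was kept in 13 fits, 3 of 35 in all.

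Of 19 genes of MHC class I antigen presentation 5 fell and none rose, with a list median of -0.65 (-0.28 on AA and -1.04 on BCAA), and without the 4 libraries that stood apart 1 of the 5, H2-T23, still met the rule. H2-T23, the non-classical class I molecule Qa-1, was at 118, 141, 152, 152 and 277 CPM on AA vehicle, 79.0, 81.7, 97.7 and 159 CPM on AA 5+3, 84.5 to 164 CPM on BCAA vehicle and 31.3 to 67.5 CPM on BCAA 5+3. On BCAA the groups were separate, on AA 1 treated mouse lay among the vehicle mice, and the main effect was -1.05 ± 0.19 (2.06-fold lower, adjusted p = 0.00345). Peptide transporter Tap1 fell by 0.89 ± 0.21 (20 fits), the classical molecule H2-K1 by 0.99 ± 0.26 (15 fits), H2-Q6 by 1.76 ± 0.49 (8 fits) and Nlrc5, the class I transactivator, by 1.21 ± 0.34 (7 fits). Class I genes are alike in sequence, so reads may be divided between them.

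Interferon-stimulated genes gave 4 lower members of 38 and none higher (median -0.43). Ifi27l2a, an interferon-induced mitochondrial protein, had 13.1, 15.3, 55.8, 61.8 and 71.1 CPM on AA vehicle, 4.72, 4.90, 9.65 and 17.4 CPM on AA 5+3, 10.3, 10.6, 15.4, 24.3 and 24.4 CPM on BCAA vehicle and 0.768 to 10.1 CPM on BCAA 5+3. It fell by 2.13 ± 0.41 on the log2 scale (4.37-fold, adjusted p = 0.00638), with the groups separate on BCAA and 1 treated mouse overlapping on AA. Isg15, a ubiquitin-like protein, changed by -0.40 on AA and -2.52 on BCAA (main -1.61 ± 0.36, adjusted p = 0.0158; interaction adjusted p = 0.146), and it was no longer called without the 4 libraries apart. Ifi209 (15 fits) and Parp14 (7 fits) were the others.

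Promoter sequence gives a description of part of this group. In the RefSeq promoter table (GRCm38.p6) the 250 bases before the start of each gene were searched on both strands for the interferon-stimulated response element, taken as TTTC, any 2 bases and TTTC. It was present for 17 of 234 lower genes with a promoter entry (7.26%), 2 of 149 higher genes (1.34%) and 362 of 11017 genes tested (3.29%). No test was made, and a match is not a binding site. The stretches below show it in 4 lower genes, read 5′ to 3′ along the gene's strand with the matches in capitals. They are Isg15 (chr4:156200855-156200916, minus strand, 3 overlapping matches 78 to 57 bases before the start), Ctss (chr3:95526745-95526785, plus strand, 21 to 12 bases before), H2-T23 (chr17:36032796-36032845, minus strand, 124 to 115 bases before) and Cybb (chrX:9469325-9469512, minus strand, 3 matches between 168 and 20 bases before).
Isg15: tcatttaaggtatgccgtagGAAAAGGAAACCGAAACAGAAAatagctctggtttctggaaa
Ctss: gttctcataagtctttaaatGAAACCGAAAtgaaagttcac
H2-T23: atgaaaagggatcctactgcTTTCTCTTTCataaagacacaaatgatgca
Cybb: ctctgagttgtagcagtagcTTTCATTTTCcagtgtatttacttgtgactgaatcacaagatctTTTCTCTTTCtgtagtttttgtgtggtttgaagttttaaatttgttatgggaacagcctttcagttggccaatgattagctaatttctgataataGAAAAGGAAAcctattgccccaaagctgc

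Other elements were spread more evenly. The E-box CACGTG, bound by Myc and related factors, was in the window of 23 of 149 higher genes (15.4%), 24 of 234 lower genes (10.3%) and 1040 of 11017 tested genes (9.44%). The STAT element TTCNNNGAA was in 7 of 149 higher (4.7%), 19 of 234 lower (8.12%) and 803 tested genes (7.29%). The C/EBP-ATF composite TGATGNAA was in 6 higher (4.03%), 5 lower (2.14%) and 294 tested genes (2.67%), and in 8 of the 27 ATF4 targets with an entry (29.6%). A p53 element of paired decamers without spacer was found in the windows of 1 of the 11017 genes, which was not in the shared response. Matches of different elements may overlap. Stretches are shown for 2 of the higher genes described above, Asns (chr6:7693210-7693252, minus strand, composite 23 to 16 bases before the start) and Ldha (chr7:46845639-46845781, plus strand, 2 E-boxes within 145 to 43 bases before the start).
Asns: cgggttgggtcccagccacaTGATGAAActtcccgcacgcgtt
Ldha: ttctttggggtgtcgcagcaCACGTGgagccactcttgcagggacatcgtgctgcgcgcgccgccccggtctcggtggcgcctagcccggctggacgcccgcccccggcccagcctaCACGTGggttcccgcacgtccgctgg

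Neutrophil genes fell on both diets for only a few members. Of 22 late neutrophil granule and calprotectin genes 4 fell and none rose, with a list median of 0.19 on AA and -1.52 on BCAA. Retnlg (ENSMUSG00000022651, chr16:48872608-48874498), a secreted resistin-like protein, was at 17.2, 25.1, 36.5, 60.8 and 64.2 CPM on AA vehicle, 8.91, 12.4, 21.1 and 24.0 CPM on AA 5+3, 153, 185, 191, 193 and 199 CPM on BCAA vehicle and 2.68 to 30.0 CPM on BCAA 5+3 (median 4.43). BCAA groups were far apart and AA groups overlapped, and BCAA vehicle mice stood above all other groups. It was the only member with a passing diet by treatment interaction (changes of -1.29 and -4.52, adjusted p = 0.0464, where 0.229% of genes passed). Its main effect was -3.18 ± 0.51 (adjusted p = 0.00141). Mmp8, the neutrophil collagenase, fell by 1.82 ± 0.39 (adjusted p = 0.0115), S100a6 was kept in 20 fits and Lyst in 7. The summed level of 9 mature neutrophil markers, Retnlg and Mmp8 among them, was 1044 to 2272 CPM on AA vehicle and 820 to 2368 on AA 5+3. On BCAA it was 1418 to 2200 CPM with vehicle and 128 to 1240 with 5+3. The sum includes Retnlg and Mmp8, and its part in their fall was not tested.

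Several lower genes belonged to no monocyte list. Itgb7 (ENSMUSG00000001281, chr15:102215994-102233405), the β7 integrin chain of homing receptors, was at 13.3, 15.5, 22.4, 25.3 and 28.1 CPM on AA vehicle against 3.91, 5.03, 5.57 and 7.43 CPM on AA 5+3. On BCAA it was at 14.5, 15.9, 16.4, 19.2 and 43.9 CPM with vehicle and 2.21 to 9.78 CPM with 5+3 (median 4.77). The groups were separate on both diets, and it fell by 2.08 ± 0.28 on the log2 scale (4.24-fold, adjusted p = 0.000163). Ccdc154, a coiled-coil protein, was likewise separate, at 15.2, 16.1, 17.4, 17.5 and 21.8 CPM against 5.76, 5.92, 6.45 and 6.82 CPM on AA and 13.8 to 24.6 CPM against 2.52 to 9.66 CPM on BCAA (-1.76 ± 0.22, adjusted p = 6.59e-05). Of the 40 adhesion and actin genes, Lsp1 (-1.46 ± 0.26) and Ahnak (-2.29 ± 0.53, 20 fits) fell as well, and none rose.

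Il12a, the p35 subunit of interleukin-12, fell by 1.82 ± 0.25 on the log2 scale (3.54-fold, adjusted p = 0.000203), from 10.4, 15.2, 15.8, 18.3 and 26.97 CPM to 3.36, 4.27, 5.02 and 6.08 CPM on AA, with the groups separate there and overlapping slightly on BCAA. Pirb, an inhibitory receptor for class I molecules with close relatives in its cluster, fell by 1.72 ± 0.24 (adjusted p = 0.000203), and on BCAA its 7 treated mice at 3.06 to 4.93 CPM lay below the vehicle range of 13.7 to 20.7 CPM. Prg3, an eosinophil granule protein, fell by 1.91 ± 0.33 (adjusted p = 0.00301). It was 1 of 10 tested markers of eosinophils, basophils and mast cells to fall, while Fcer1a rose at a mean of 0.492 CPM (18 fits), and the other 8 did not pass. The summed level of the 12 listed markers, Prg3 among them, was 55.1 to 154 CPM on AA vehicle (median 105) and 30.8 to 55.6 on AA 5+3 (median 34.8). On BCAA it was 64.1 to 156 CPM with vehicle (median 111) and 41.8 to 107 with 5+3 (median 64.6). Its part in the fall of Prg3 was not tested. Selenow, a small selenoprotein, fell by 1.35 ± 0.25 (adjusted p = 0.00431), and Rimklb, a glutamate ligase, by 1.58 ± 0.42 in 9 fits.

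Members among genes of the leukaemia itself were less stable. Of 24 genes of the MLL-AF9 programme 4 fell and none rose (median -0.24), where 2.08% of all genes tested fell. None of the 4 was kept in all 21 leave-one-out fits. Among them were Hoxa5 (-1.39 ± 0.35, 16 fits), Bcl2 (-0.79 ± 0.22, 9 fits) and Myb (-0.57 ± 0.16, 7 fits). Kit, the receptor for stem cell factor, was the 1 of 29 cytokine and growth factor receptors to fall. It had 65.9, 68.4, 84.9, 90.7 and 97.5 CPM on AA vehicle against 20.8, 31.3, 31.6 and 39.3 CPM on AA 5+3, and 68.3 to 111 CPM on BCAA vehicle against 36.4 to 94.1 CPM on BCAA 5+3. The groups were separate on AA and overlapped on BCAA (main -0.81 ± 0.21, adjusted p = 0.0344, 16 fits; interaction adjusted p = 0.244).

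Lists with 1 or 2 members make up most of the rest. Over all genes tested 1.39% rose and 2.08% fell in mRNA, and 9.59% rose in footprints. Of 20 cytosolic tRNA synthetases, Wars (1.14 ± 0.28, 19 fits) and Farsb (0.82 ± 0.21, 11 fits) rose, and in footprints 16 of 20 did. Of 26 cholesterol genes, Insig1, which holds back sterol synthesis, rose by 0.91 ± 0.20, and the sterol enzyme gene Hsd17b7 by 1.12 ± 0.29 (10 fits). In footprints none of the 26 passed. Of 30 purine and pyrimidine genes, Rrm2 and Prps1 (0.70 ± 0.19, 8 fits) rose. Single genes rose among 31 proteasome subunits (Psmd3, 0.51 ± 0.14, 7 fits), where 24 rose in footprints, and among 45 subunits of oxidative phosphorylation (Atp5b, 0.79 ± 0.22, 8 fits). Of 26 amino acid transporters Slc7a5 rose and the glutamate carrier Slc1a3 fell by 0.72 ± 0.19 (15 fits). In the Bcl2 family of 16, Pmaip1 rose and the survival gene Bcl2 fell, and of 32 myeloid transcription factors Irf8 and Klf4 fell.

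Of the 33 gene lists, 8 had no member: DNA damage, branched-chain amino acid catabolism, the unfolded protein response, heat shock, mitochondrially encoded proteins, cytosolic ribosomal proteins, ribosome biogenesis and splicing factors. The 78 ribosomal protein genes had a median change of 0.17 on AA and -0.77 on BCAA, and 18 of them had the same sign on both diets. Erythroid markers went opposite ways, with a median of 1.92 on AA and -3.41 on BCAA, and none of the 10 tested met the rule. Of the lymphoid markers, Ebf1 and Vpreb3 (10 fits) fell at means of 2.99 and 1.76 CPM. None of 12 T and NK cell markers passed, but 9 had a positive change on both diets and none a negative one (median 1.07). Their summed level was 4.06 to 7.13 CPM on AA vehicle and 7.78 to 15.6 on AA 5+3. On BCAA it was 0.587 to 14.2 CPM with vehicle and 9.19 to 15.5 with 5+3. None of 13 stroma and bone markers passed either, and 11 were positive and none negative on both diets (median 0.86).

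Ribosome footprints, prepared from the same lysates, gave another readout of the same mice. Of the 486 genes, 413 were tested in footprints, where the main effect of 5+3 was fitted in the same way. It was called in the same direction for 230 (101 higher and 129 lower) and in the opposite direction for 1, Gfm2, a mitochondrial translation factor whose mRNA met the rule in 20 fits, and 381 had the same sign. Among the 9658 genes tested in both readouts, the footprint effect was called for 19.6%, 9.72% higher and 9.9% lower, and among all 9884 genes tested in footprints for 19.4%, 9.59% higher and 9.8% lower. Footprint changes had medians of 0.31 for the higher and -0.42 for the lower genes. The mRNA medians are those of genes chosen on mRNA, which makes them larger, so the sizes in the 2 readouts are not compared. The median standard error over all genes was 0.11 in footprints and 0.24 in mRNA.

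For the leading genes the footprint change had the sign of the mRNA change. Pim1 footprints were 7.49 to 35.7 CPM on AA vehicle, 41.8 to 147 on AA 5+3, 9.14 to 21.6 on BCAA vehicle and 33.0 to 229 on BCAA 5+3 (log2 2.70, adjusted p = 9.58e-05). Ms4a3 footprints were 22.2 to 54.6 CPM and 109 to 204 CPM on AA, and 25.6 to 42.8 CPM and 65.3 to 269 CPM on BCAA (1.99, adjusted p = 6.64e-05). Cdkn1a footprints were 3.37 to 10.9 CPM and 12.8 to 32.3 CPM on AA, and 6.92 to 12.3 CPM and 15.1 to 36.1 CPM on BCAA (1.56, adjusted p = 1.74e-06). For these 3 genes, treated and vehicle mice did not overlap on either diet. How many of all genes separate in this way in footprints was not counted, so no weight is placed on it. Lyz2 footprints were 153 to 495 CPM with vehicle and 54.2 to 98.9 CPM with 5+3 on AA, and 169 to 233 CPM and 35.0 to 113 CPM on BCAA, also without overlap (-1.81, adjusted p = 2.86e-05). Irf8 (-1.77, adjusted p = 0.000475) and Itgb7 (-1.75, adjusted p = 0.000980) fell too, whereas Gclm (0.19, adjusted p = 0.0506), Bcl3 (0.20, adjusted p = 0.678), Isg15 (-0.54, adjusted p = 0.220) and Hk2 (-0.16, adjusted p = 0.131) did not pass. Phlda3, Ifi27l2a, Il12a, Aif1, Ccdc154 and Rimklb were not tested in footprints because of low counts. By list, footprints rose for 7 and fell for 1 of 23 p53 targets, and fell for 16 of 23 monocyte and macrophage genes, 10 of 19 class I genes and 9 of 35 interferon-stimulated genes, with none of these 3 lists holding a gene that rose.

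**Figure D5:**
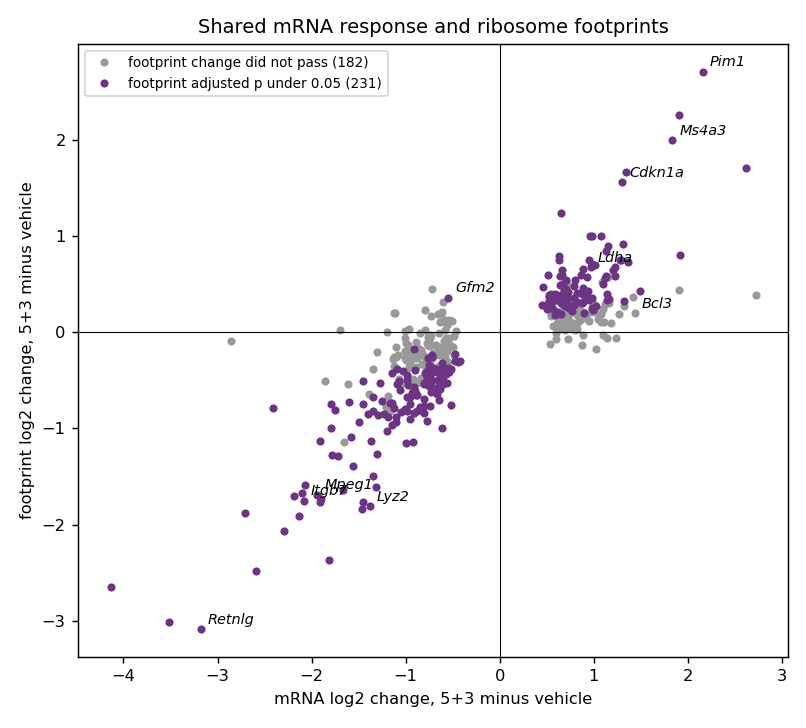
mRNA change after 5+3 (horizontal, log2) against footprint change (vertical, log2) for the 413 shared genes tested in both, 1 point per gene. Purple points passed the footprint test (230 in the same direction and Gfm2 in the opposite one) and grey points did not; Pim1, Ms4a3 and Cdkn1a lie at the upper right and Retnlg at the lower left.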

How the data were processed

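Gene counts for 21 mRNA libraries (Smart-seq2 on part of each lysate) and 21 footprint libraries were used as deposited. Builds GRCm38 and mm10 and the tools STAR, featureCounts, cutadapt, SAMtools and Bowtie2 are listed, without roles or settings, in the submitters' processing notes; strand use is not given in the sources used here. The deposited values are raw counts per Ensembl gene. Protein-coding genes were taken by symbol from RefSeq GRCm38.p6 (21364 identifiers of 55487, the 13 mitochondrially encoded ones by name).

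Genes were filtered (edgeR 4.0.16 filterByExpr, minimum count 10, total 15), scaled by TMM and fitted by robust quasi-likelihood with diet and treatment as terms; a 4-group fit gave within-diet changes and the interaction, and p-values were adjusted by Benjamini-Hochberg over all genes tested. CPM use TMM-scaled library sizes. Standard errors are the log2 change divided by the root of the F statistic. The 12 higher and 12 lower named genes needed a mean of 10 CPM and 75% of treated and vehicle pairs on each diet going the same way, ranked by the smaller of the diets' changes; list genes were the members of 33 gene and 11 marker lists, led by the smallest adjusted p. Members and lists were chosen with earlier results of these data known. Alternatives used DESeq2 1.42.0, limma 3.58.1, other filters and scalings, and libraries left out. Within-group libraries differed by more than sampling noise (chi-square per degree of freedom 42.4 to 843), so none was counted as a library deposited more than once. On simulated data at this design, 74.0% of 100 genes changed 1 log2 unit on both diets and 92.0% of 100 changed 2 units were recovered among 13980. The changed genes had a mean of at least 1 CPM. Counts were drawn independently, without a diet effect or outlying libraries, so these shares need not hold for the deposited libraries. One gene of the lists is not reported here.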

Additional observations from a re-analysis of the deposited data

Results flagged for a closer look

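Retnlg is the only gene of the shared response that passed the interaction test between diets after adjustment (-1.29 on AA and -4.52 on BCAA on the log2 scale, edgeR adjusted p = 0.0464). In 6 of 96 groups of the 24 named genes, 1 library lay farther from the others than Dixon's 95% limit allows, where chance gives about 1 in 20. BCAA 5+3 3 was highest in its group for Retnlg (29.96 CPM) and Ccdc154 (9.659 CPM). BCAA vehicle 5 was highest for Itgb7 (43.86 CPM) and lowest for Ccng1 (24.78 CPM). BCAA vehicle 2 was highest for Mpeg1 (60.58 CPM), and AA 5+3 4 was highest for Prg3 (17.56 CPM). All of these genes were called without the library in question.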

How the results depend on the processing

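With all 21 libraries 488 genes had a called main effect and 486 were shared (195 higher, 291 lower). Leaving out each library in turn gave 193 to 1674 called and 193 to 1661 shared genes (53 to 843 higher, lowest without BCAA vehicle 2; 136 to 818 lower, lowest without AA vehicle 3; highest for all 4 counts without AA vehicle 4). It gave 9 to 38 interactions against 32, 25 to 58 genes with separate groups on both diets against 24, and 1580 to 2041 footprint calls against 1917. DESeq2 called 1511, shared 1462 (662 higher, 800 lower) and 167 interactions, and a fit over all genes of the table called 311, shared 311 (106 higher) and 15 interactions. The higher genes numbered 306 with a filter at a mean of 10 CPM, 359 with limma-voom (53.9% of its shared genes, against 40.1%; its median over all genes moved to 0.12) and 301 without the diet covariate (50.4%). Interactions numbered 14 with no filter and 122 with the number of detected genes as covariate, under which 424 were shared, 253 of them among the 486, and 53.5% were higher. At an adjusted p under 0.01, 73 were shared (22 higher, 51 lower), and at an unadjusted p under 0.05 on each diet 254 (86 higher, 168 lower). Mice of the same replicate number had correlations of deviations of -0.10 to 0.23 (9 pairs, 3 above 0.1), which neither shows nor excludes a pairing. With replicate numbers as a replicate block, 25 genes were called and 25 shared (10 higher, 15 lower), with 8 interactions. Chosen after seeing the data, leaving out BCAA vehicle 1 and 5 gave 252 called and 252 shared (74 higher, 178 lower) and 51 separate genes. Leaving out BCAA vehicle 2 and BCAA 5+3 7 as well gave 98 called and 98 shared (25 higher, 73 lower), 5 interactions, 83 separate genes and 1035 footprint calls. Fewer samples enter those fits; otherwise the cause was not tested. Of 79 genes named or leading a list, calls were kept for 79 with median-ratio scaling and with DESeq2, 71 with limma-voom and without the diet covariate, 67 with no filter, 56 with all genes in the fit, 55 with the detected-genes covariate, 45 without the 2 libraries, 28 without the 4 and 19 with the replicate block, and none reversed. Libraries of the same group differed by more than counting error. Spread between mice and spread from library preparation cannot be told apart, since each replicate has a single mRNA library.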

Other observations

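Of the 153 genes that met the rule in every leave-one-out fit, 119 belong to no gene or marker list. Those named here were chosen after their values were seen. Surface receptors were among the lower ones, with the C-type lectins Clec7a (-1.35, edgeR adjusted p = 0.00735) and Clec12a (-0.64, adjusted p = 0.0252), Sirpa, the receptor for CD47 (-0.90), Cd93 (-0.95), the sialic acid lectin Siglecg (-1.34) and the integrin chains Itga1 (-3.52 at a mean of 3.37 CPM) and Itgb3 (-1.91). All 7 also fell in footprints. Of the 238 lower genes of the shared response tested there, 216 had a negative footprint change and 129 were called lower. Over all genes tested in footprints 9.8% were called lower. The checkpoint receptor Vsir fell by 0.81 with separate groups on both diets.

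Higher genes outside the lists included Cd38, an enzyme that consumes NAD (2.72 at a mean of 1.95 CPM, groups separate on both diets), the kinases Jak3 (0.96) and Dyrk3 (1.91), the transcription factor Mybl2 (1.21) and the polo-like kinase Plk4 (0.93). G6pdx, the entry enzyme of the pentose phosphate pathway, rose by 1.32. Footprints of Jak3 rose by 0.99 (adjusted p = 1.11e-05). Footprints of E2f4, a cell cycle repressor whose mRNA rose by 0.82, changed by 0.03 (adjusted p = 0.871). Without the 4 libraries that stood apart, Clec12a, Sirpa, Cd93, Itgb3, Vsir, Mybl2, Plk4, G6pdx and E2f4 no longer met the rule.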
